A study of Homo sapiens with 36 samples.

Results

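The genes described here are the 200 long non-coding RNA (lncRNA) genes named LINC followed by digits that collected the most reads in a series of 36 RNA-seq libraries of HCT116 colorectal cancer cells. Members were chosen by their raw counts: the count of each of the 2242 such lncRNA genes of GENCODE found in the files was summed over all 36 libraries, and the 200 highest sums were kept. The files count 60648 gene identifiers, 16780 of them lncRNA genes. Because the sum chose the members, their levels are a description, and the list favours genes that are high in any of the groups. The members just inside the limit were LINC01409 and LINC02606, with 452 reads each, and the LINC genes just outside it were LINC01140 with 450 and LINC00896 with 449. The name LINC stands for a long intergenic non-coding RNA, but the annotation places an exon of 98 of the 200 members over an exon of another gene, which is a protein-coding gene for 23 of them. The members are therefore called LINC lncRNAs after their names, not after their position.

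HCT116, a human colorectal cancer cell line, was grown in McCoy's 5A medium as WT, as 2 lines with a single degron (DNMT1-AID and UHRF1-AID) and as the line with both, UHRF1-AID/DNMT1-AID. In the AID lines the named protein carries an auxin-inducible degron, a tag that lets the plant ubiquitin ligase OsTIR1 mark it for degradation once auxin is added, and all 4 lines, WT included, carry OsTIR1 under a promoter induced by doxycycline (Dox). Every group, WT included, received 2 µg/mL Dox with 20 µM auxinole (an OsTIR1 inhibitor) for 1 day and then 2 µg/mL Dox with 500 µM auxin for 2, 6 or 8 days, with fresh medium every 2 days. Each of the 12 groups of line and day has 3 poly-A RNA libraries, and the clone behind each library is not given, so the p-values measure the spread between these libraries.

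UHRF1 recognises hemimethylated DNA behind the replication fork and brings in DNMT1, the methyltransferase that copies CpG methylation onto the new strand. Long intergenic non-coding RNAs are transcribed mostly by RNA polymerase II, spliced and often polyadenylated like mRNAs, but they code for no known protein, and many are made in few cell types and at low level. The roles of most members are not settled. A few have been studied in tumours, such as LINC00958, LINC00511, LINC00963, LINC01234 and LINC01116.

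The libraries held 21074536 to 37175136 counted reads, of which the 200 members took 0.1445%. Replicates differed most in UHRF1-AID on days 6 and 8 (chi-square per degree of freedom 32.1 and 32.3, against 5.45 to 23.9 in the other groups), where the replicate 2 library often stood apart. Without that library, 22 members in place of 27 were called against WT on day 6 and 38 in place of 40 on day 8. Of 9 markers of colon epithelium, 7 had a mean of at least 10 CPM (counts scaled by library size and a TMM factor), while CDX1 and LGALS4 were near 0. The defining markers of leukocytes (PTPRC, CD3E), endothelium (PECAM1, VWF, CDH5) and fibroblasts (COL1A2, DCN, PDGFRB) stayed at or below 2.41 CPM in every library, and CD68 and COL1A1 reached 34.7 and 75.3 CPM. The degron acts on the protein, so the RNA of the tagged genes does not check the labels. UHRF1 RNA on day 8 was 137 to 140 CPM in WT, 81.2 to 129 CPM in UHRF1-AID and 36.4 to 70.5 CPM in UHRF1-AID/DNMT1-AID. DNMT1 RNA on day 8 was 178 to 195 CPM in WT, 55.3 to 65.6 CPM in DNMT1-AID and 30.4 to 49.0 CPM in UHRF1-AID/DNMT1-AID.

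The promoter windows of 6 members with low WT levels or a lower level in the degron lines are given here, because loss of CpG methylation is what the degron lines were made for. Each is a RefSeq window (GRCh38.p14) of 300 bases around the RefSeq start, most of it upstream of that start, which lies within 1 base of the GENCODE start for LINC00200, LINC02212 and LINC01404. For LINC02714, LINC01116 and LINC01271 the RefSeq start lies 348, 321 and 143 bases inside the GENCODE gene, so that the windows of LINC02714 and LINC01116 fall wholly within it and that of LINC01271 in part. The windows are written 5' to 3' on the strand of the gene, with every CG pair in capitals. LINC00200 (chr10:1159518-1159817, plus strand, 23 CG pairs) and LINC02714 (chr11:134735695-134735994, plus strand, 21 CG pairs) had no read in any WT library. LINC01116 (chr2:176637560-176637859, minus strand, 34 CG pairs), LINC02212 (chr5:10502679-10502978, minus strand, 9 CG pairs) and LINC01404 (chr12:110957769-110958068, minus strand, 5 CG pairs) were near 0 in WT. LINC01271 (chr20:50321293-50321592, minus strand, 9 CG pairs) was lower in the line with both degrons than in WT.
LINC00200: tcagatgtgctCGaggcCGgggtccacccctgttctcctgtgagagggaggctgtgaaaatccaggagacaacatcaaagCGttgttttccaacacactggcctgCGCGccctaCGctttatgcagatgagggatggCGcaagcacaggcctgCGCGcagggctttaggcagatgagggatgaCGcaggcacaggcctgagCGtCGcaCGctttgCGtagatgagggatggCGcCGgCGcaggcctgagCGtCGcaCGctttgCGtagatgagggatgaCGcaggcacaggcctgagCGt
LINC02714: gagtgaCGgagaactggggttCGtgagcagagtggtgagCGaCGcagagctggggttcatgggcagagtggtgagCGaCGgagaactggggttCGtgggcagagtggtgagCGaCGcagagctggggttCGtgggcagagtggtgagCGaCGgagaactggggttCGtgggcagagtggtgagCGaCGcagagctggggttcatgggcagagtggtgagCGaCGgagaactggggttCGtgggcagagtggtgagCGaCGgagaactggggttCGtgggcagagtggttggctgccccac
LINC01116: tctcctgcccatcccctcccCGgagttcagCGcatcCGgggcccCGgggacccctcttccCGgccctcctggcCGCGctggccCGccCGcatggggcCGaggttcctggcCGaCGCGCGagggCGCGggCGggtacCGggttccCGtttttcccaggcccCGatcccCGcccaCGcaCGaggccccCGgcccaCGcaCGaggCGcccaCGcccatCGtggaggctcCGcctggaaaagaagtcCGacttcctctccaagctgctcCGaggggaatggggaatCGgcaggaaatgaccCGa
LINC02212: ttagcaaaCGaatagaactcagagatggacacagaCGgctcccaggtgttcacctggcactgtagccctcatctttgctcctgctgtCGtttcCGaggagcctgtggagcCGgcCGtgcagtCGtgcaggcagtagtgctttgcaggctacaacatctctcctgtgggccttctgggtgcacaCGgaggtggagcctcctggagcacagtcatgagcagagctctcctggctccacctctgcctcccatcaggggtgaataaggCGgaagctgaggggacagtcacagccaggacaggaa
LINC01404: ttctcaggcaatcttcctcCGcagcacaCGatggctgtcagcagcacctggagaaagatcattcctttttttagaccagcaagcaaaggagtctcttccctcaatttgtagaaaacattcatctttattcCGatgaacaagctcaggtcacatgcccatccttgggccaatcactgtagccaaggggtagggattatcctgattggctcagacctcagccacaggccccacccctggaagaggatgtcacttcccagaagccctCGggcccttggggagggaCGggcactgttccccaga
LINC01271: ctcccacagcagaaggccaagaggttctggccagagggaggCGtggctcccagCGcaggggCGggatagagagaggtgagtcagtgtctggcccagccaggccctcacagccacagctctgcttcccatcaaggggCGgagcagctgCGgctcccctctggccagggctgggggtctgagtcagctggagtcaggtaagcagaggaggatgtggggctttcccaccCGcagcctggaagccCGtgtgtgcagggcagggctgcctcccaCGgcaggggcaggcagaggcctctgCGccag

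CG pairs were counted in the window of each of the 135 members that have one. The median was 13 pairs, and 39.26% of the members had at least 20 pairs. Over all 27305 promoter windows of the same length the median was 14 and the share with at least 20 was 41.2%. The 1443 windows of LINC genes outside the list had a median of 4 pairs, with 9.286% at 20 or more, so the members' windows held more CG pairs than those of the less read LINC genes. Among the members called higher in UHRF1-AID/DNMT1-AID on day 8, 39.47% of 38 windows had at least 20 pairs, against 40.48% of the 84 windows of members not called. The printed windows show the same range within genes that were near 0 in WT, from 5 CG pairs in LINC01404 to 34 in LINC01116. Methylation of these windows was not analysed here.

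Reads were spread very unevenly over the members. LINC02574 alone held 535119 reads, 39.87% of the reads of all members, and the 10 most read members held 61.23%. The median member had 1635 reads in all 36 libraries together and a mean level of 1.739 CPM. The mean was below 1 CPM in 59 members and at 10 CPM or more in 22, and 168 members had reads in every library. Exon length ran from 315 to 33198 bases with a median of 3706. Per kilobase of exon, the mean level was 301 CPM for LINC02574, 28.2 for LINC02067, 15.32 for LINC03057 and 9.702 for LINC01764, and LINC00511, which has the fifth-highest sum of reads, was at 1.035 CPM per kilobase.

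LINC02574 (chr1:27660328-27666279, minus strand) shares exons on the same strand with IFI6, an interferon-induced gene for a mitochondrial protein. In WT it was at 35.2, 48.8 and 51.2 CPM on day 2, 345, 383 and 437 CPM on day 6, and 513, 398 and 493 CPM on day 8. On day 8 it was at 897, 1230 and 836 CPM in UHRF1-AID, at 1110, 1040 and 1090 CPM in DNMT1-AID, and at 1330, 1700 and 1370 CPM in UHRF1-AID/DNMT1-AID. Every degron library of day 8 was above every WT library, while on day 2 both lines with the UHRF1 degron overlapped WT. DNMT1-AID was at 117, 69.6 and 82.3 CPM on day 2, above WT, and was not called. Against WT of day 8 its log2 fold change was 1.08 ± 0.31 (SE) for UHRF1-AID (adjusted p = 0.00835), 1.21 ± 0.31 for DNMT1-AID (adjusted p = 0.00332) and 1.65 ± 0.32 for UHRF1-AID/DNMT1-AID (adjusted p = 7.49e-05). All tests of this kind are edgeR quasi-likelihood tests fitted to 22530 genes, with Benjamini-Hochberg adjustment over all of them. A member was called where the adjusted p was below 0.05 and the log2 fold change was above 1 or below -1.

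The raw count of LINC02574 was 0.2063 to 0.2605 times that of IFI6 in all 36 libraries, while both counts changed greatly between groups. IFI6 itself had a log2 fold change of 1.52 ± 0.30 in UHRF1-AID/DNMT1-AID against WT on day 8. LINC01764 (chr19:15827005-15835853, minus strand), which overlaps exons of UCA1, a lncRNA studied in bladder cancer, on the opposite strand, kept a ratio of 0.5447 to 0.6656 to the count of UCA1. LINC01618 (chr4:52712394-52866821, plus strand), which shares exons with DANCR on the same strand and also overlaps RASL11B, kept 0.3914 to 0.5767 of the count of DANCR. How the counting treated reads in shared exons and on which strand is not given in the sources used here, so the reads of such neighbours cannot be told apart.

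**Figure D1:**
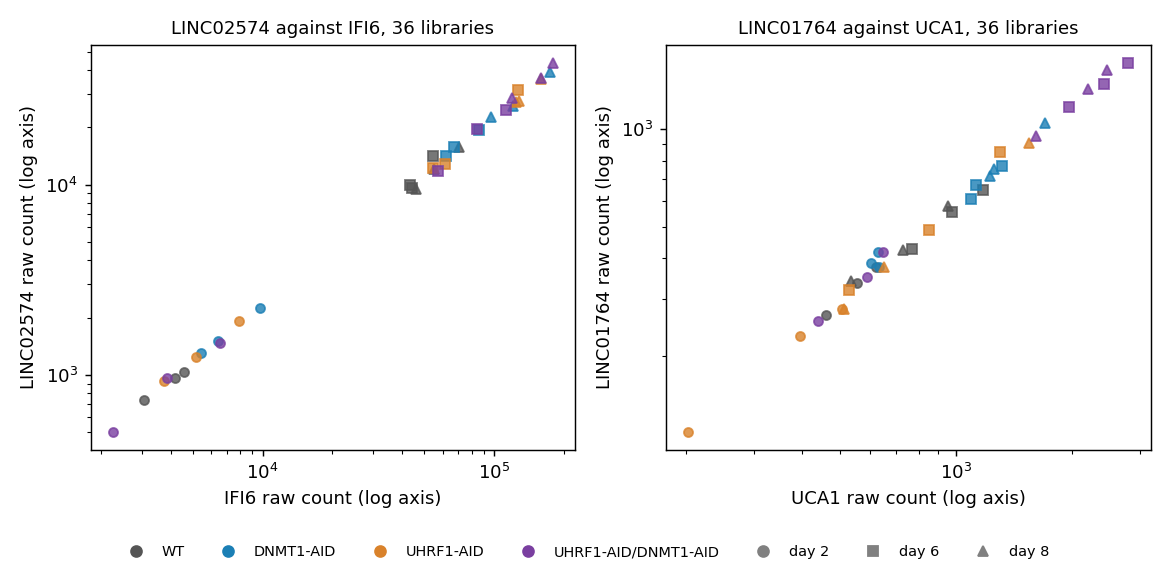
Raw counts of LINC02574 against IFI6 (left) and of LINC01764 against UCA1 (right), both axes on a log scale, with 1 point for each of the 36 libraries, coloured by line and shaped by day. The points lie along a line in both panels, with a count ratio of 0.2063 to 0.2605 on the left and of 0.5447 to 0.6656 on the right.

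Of the other highly read members, LINC01002 is described with the changes over days. LINC01764 was at 44.5, 59.2 and 49.9 CPM in UHRF1-AID/DNMT1-AID on day 8, against 14.5, 17.8 and 18.1 CPM in WT, and was called higher (log2 fold change 1.61 ± 0.32, adjusted p = 0.000129). In UHRF1-AID on day 8 its libraries were at 9.26, 30.8 and 11.4 CPM, so that replicate 2 lay above all WT libraries and the others below them. LINC03057 (chr17:48635923-48647023, minus strand, within 5 kb of HOXB7) was at 38.6, 42.7 and 34.8 CPM in UHRF1-AID/DNMT1-AID on day 8, above the 26.1, 26.6 and 23.7 CPM of WT, but its log2 fold change of 0.61 ± 0.10 stayed under the limit for a call. The same held for LINC00963, with a log2 fold change of 0.73 ± 0.12 in that comparison. LINC00511, LINC01234, LINC01504, LINC02067 and LINC00649 also had no call in any of the 9 comparisons with WT. LINC00511, for example, was at 28.2, 24.0 and 26.3 CPM in WT on day 8 and at 23.7, 30.9 and 22.8 CPM in UHRF1-AID/DNMT1-AID, which overlap. Of the 10 most read members, LINC02574, LINC01764 and LINC01002 were called in at least 1 comparison with WT. LINC00511, LINC00649, LINC00963, LINC03057 and LINC01504 have an exon of another gene on the opposite strand within their exons or a gene on the same strand within 5 kb, and LINC02067 overlaps the pseudogene RPL23AP42.

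The comparison of each degron line with the WT libraries of its own day asks how removal of UHRF1, DNMT1 or both for that time changes the members. All 3 lines of a day share the same 3 WT libraries. On day 2, members called higher numbered 3 in DNMT1-AID (0.732% of all genes tested were called higher), 15 in UHRF1-AID (3.64%) and 26 in UHRF1-AID/DNMT1-AID (5.90%). Members called lower on day 2 numbered 0 in DNMT1-AID by edgeR and by DESeq2 (0.0799% of all genes by edgeR; 6 members were lower at an unadjusted p under 0.05), 5 in UHRF1-AID (3.29%) and 3 in UHRF1-AID/DNMT1-AID (1.07%). On day 6 the members called higher numbered 15 (3.25%), 21 (5.85%) and 28 (9.35%) in the same order of lines, and those called lower 3 (0.391%), 6 (0.741%) and 12 (1.91%). On day 8 there were 27 (6.94%), 31 (9.01%) and 57 (17.3%) members higher and 8 (3.14%), 9 (2.24%) and 18 (10.2%) lower. With scaling by library size alone the higher and lower members of UHRF1-AID/DNMT1-AID numbered 43 and 29 on day 8 and 22 and 6 on day 2, while DNMT1-AID had 22 and 18 on day 8. Out of 200 members, 57 are 28.5% and 18 are 9.0%. With TMM scaling the share of members called higher was thus above that of all genes in each of the 9 comparisons. The share called lower was also above it in most, such as 6.0% against 1.91% in UHRF1-AID/DNMT1-AID on day 6. The exceptions were DNMT1-AID and UHRF1-AID on day 2 and UHRF1-AID/DNMT1-AID on day 8. The median log2 fold change in UHRF1-AID/DNMT1-AID on day 8 was 0.24 over the members and 0.05 over all genes. Shares of all genes were not set beside the counts with scaling by library size alone.

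**Figure D2:**
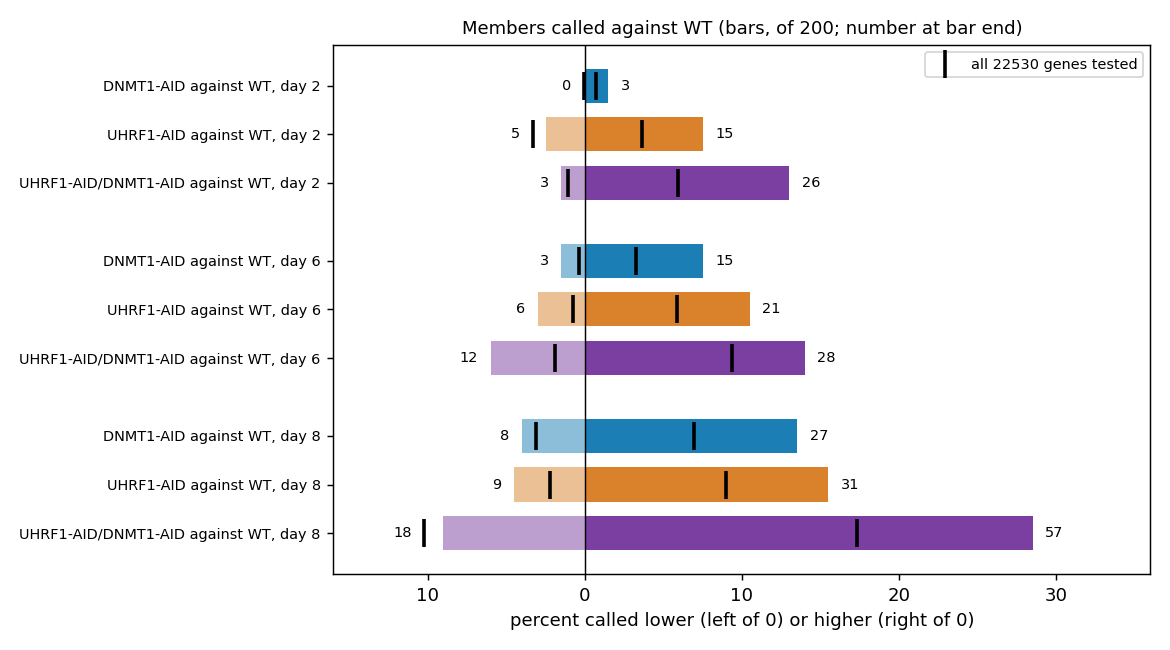
Percent of the 200 members called lower (pale bars, left of 0) and higher (full bars, right of 0) in each degron line against WT of the same day, with the number of members at the bar end and a black tick at the percent of all 22530 genes tested. The bar for higher members ends beyond its tick in each comparison and is longest for UHRF1-AID/DNMT1-AID on day 8, with 57 members.

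The choice of members carries part of this count. A gene that WT cells barely express can reach the list only through the degron lines, and must then be higher in them. With the 200 LINC lncRNAs chosen on the WT libraries alone, 178 of which are the same genes, the members called higher on day 8 numbered 11 in DNMT1-AID, 13 in UHRF1-AID and 36 in UHRF1-AID/DNMT1-AID, and those called lower 10, 13 and 22. On day 2 that list had 1, 3 and 10 members higher and 0, 5 and 3 lower, and on day 6 it had 3, 4 and 7 higher and 3, 6 and 13 lower. For that list the share called higher exceeded the share of all genes in 1 of 9 comparisons, UHRF1-AID/DNMT1-AID on day 8 (18.0% against 17.3%). In the other 8 comparisons the share of that list called higher was below the share of all genes. The share of that list called lower was above the share of all genes in 7 of 9 comparisons, such as 6.5% against 2.24% in UHRF1-AID on day 8. The exceptions were DNMT1-AID (0.0% against 0.0799%) and UHRF1-AID (2.5% against 3.29%) on day 2. That list in turn favours genes that are high in the WT libraries used as controls, so neither list gives the balance of higher and lower members apart from how it was chosen. For the 200 members as chosen, exon overlap with another gene was set beside the calls of UHRF1-AID/DNMT1-AID on day 8: 29 of the 102 members without such an overlap were called higher and 6 lower, against 28 and 12 of the 98 with it.

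The calls of day 2 and day 8 were set side by side within each line, with the same shares over all genes tested. In UHRF1-AID/DNMT1-AID, 24 of the 26 members called higher on day 2 were also called higher on day 8, which is 92.31% of the former and 42.11% of the latter, against 91.27% and 31.14% over all genes. In UHRF1-AID this was 14 of 15 members (93.33% and 45.16%, against 84.53% and 34.2% over all genes), and in DNMT1-AID 3 of 3, or 11.11% of the 27 called on day 8 (95.15% and 10.04% over all genes). Many of these members were near 0 in WT, and their direction follows from the choice of members. Of the members called lower in UHRF1-AID/DNMT1-AID, LINC02454 alone of the 3 of day 2 was called lower on day 8 (33.33%, against 58.26% over all genes). LINC02982, also of those 3, was called higher on day 8 (log2 fold change 1.05, change of effect from day 2 of 2.82). Its call of day 2 depended on single libraries, as given below. Of the 12 members called lower on day 6, 7 were called lower on day 8 (58.33%, against 67.29% over all genes). In UHRF1-AID 5 of the 6 members called lower on day 6 were called lower on day 8 (83.33%, against 58.68% over all genes). The comparisons of different days share no library, and whether the libraries share a culture is not given.

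A mean below 0.1 CPM over the 9 WT libraries was found for 11 members, a set drawn after their values were seen: LINC00200, LINC02714, LINC01160, LINC00958, LINC02240, LINC02212, LINC01116, LINC00540, LINC02904, LINC01404 and LINC02575. They are on the list because of the degron lines, so their direction follows from the choice, and what can be described is how far and when each was read in which line. Without a WT read, a fold change is a lower bound against 3 counts over the WT group, and with 1 to 3 WT reads it is a ratio with a 95% interval. Both cover counting error only, and reads without molecular identifiers are not independent molecules.

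LINC00958 (chr11:12961541-12989597, minus strand), which shares no exon with another gene, was read in all 27 degron libraries and in 2 of 9 WT libraries, with 1 read each. On day 2 it was at 0.837, 0.534 and 0.544 CPM in DNMT1-AID, at 1.68, 1.63 and 1.55 CPM in UHRF1-AID, and at 3.87, 3.12 and 3.81 CPM in UHRF1-AID/DNMT1-AID. By day 8 it was at 2.22, 3.25 and 2.92 CPM in DNMT1-AID, at 5.62, 8.25 and 5.82 CPM in UHRF1-AID, and at 13.4, 16.5 and 14.5 CPM in UHRF1-AID/DNMT1-AID. The lines kept this order without overlap on all 3 days. In UHRF1-AID/DNMT1-AID it was at least 73.2-fold higher than in WT on day 2 and the ratio was 1180 on day 8 (95% interval 211 to 46600, from 1095 reads against 1). Both single degrons were also called on day 2, with bounds of 13.0-fold in DNMT1-AID (adjusted p = 1.28e-05) and 32.8-fold in UHRF1-AID (adjusted p = 2.24e-10). The direction against WT follows from the choice of members, so these p-values are no support for it. LINC00958 is an RNA studied in several carcinomas.

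LINC00200 (chr10:1159768-1289426, plus strand), the gene of the printed window with 23 CG pairs, was read where UHRF1 carried the degron. It had no read in WT, none in DNMT1-AID on days 2 and 8, and 0, 0.121 and 0 CPM in DNMT1-AID on day 6. In UHRF1-AID it was at 1.55, 0.912 and 0.811 CPM on day 2 and at 1.45, 2.22 and 2.37 CPM on day 8. In UHRF1-AID/DNMT1-AID it was at 2.30, 2.06 and 1.57 CPM on day 2 and at 3.46, 3.42 and 5.22 CPM on day 8. All libraries of the lines with the UHRF1 degron lay above all others on each day. On day 8 UHRF1-AID was at least 54.6-fold higher than DNMT1-AID (adjusted p = 6.92e-08) and UHRF1-AID/DNMT1-AID at least 110-fold higher (adjusted p = 1.61e-10), in the test of the difference between lines. LINC00200 is on the list because of the lines with the UHRF1 degron. The direction of these differences thus also follows from the choice, and the p-values are no support for it. The exons of LINC00200 overlap WDR37 on the same strand and ADARB2 on the other. WDR37 was at 10.6 to 20.4 CPM in all 36 libraries and was not called in any of these comparisons, and ADARB2 had no read outside 1 library, at 0.0910 CPM.

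LINC02714 (chr11:134735596-134810530, plus strand) and LINC01160 (chr1:111599655-111608723, minus strand) overlap no exon of another gene. LINC02714 was at 0.256, 0.0802 and 0.239 CPM in DNMT1-AID, 0.959, 1.06 and 0.789 CPM in UHRF1-AID and 2.20, 2.30 and 2.03 CPM in UHRF1-AID/DNMT1-AID on day 8, with no overlap between the lines. Against WT these were at least 5.22-fold, 24.6-fold and 57.4-fold higher. LINC01160, with 1 WT read in all, was at 0.0852, 0.762 and 0.479 CPM in DNMT1-AID, 0.463, 0.920 and 1.85 CPM in UHRF1-AID and 3.79, 6.42 and 4.47 CPM in UHRF1-AID/DNMT1-AID on day 8. The 2 single degron lines overlapped for LINC01160, and UHRF1-AID/DNMT1-AID stood above both (log2 difference 2.17 ± 0.49 from UHRF1-AID, adjusted p = 0.000724). It was at least 131-fold higher there than in WT. The choice by summed reads favours the line with most reads, so the difference between lines is not free of that choice.

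LINC01116 (chr2:176611437-176637931, minus strand) and LINC02212 (chr5:10493291-10502728, minus strand) were less ordered by line. LINC01116 on day 2 was at 0.157, 0 and 0.0544 CPM in DNMT1-AID and at 0.628, 1.23 and 0.811 CPM in UHRF1-AID. On day 8 the order was turned, with 1.39, 1.72 and 1.67 CPM in DNMT1-AID above 0.397, 0.886 and 0.819 CPM in UHRF1-AID (log2 difference -1.18 ± 0.40 of UHRF1-AID from DNMT1-AID, adjusted p = 0.046). The change of this difference between the days was not tested. In UHRF1-AID/DNMT1-AID it was at 2.09, 0.946 and 0.895 CPM on day 2 and at 1.26, 2.61 and 2.25 CPM on day 8. LINC02212 on day 8 was at 0.341, 1.20 and 1.15 CPM in DNMT1-AID, 0.926, 1.50 and 1.18 CPM in UHRF1-AID and 2.01, 1.17 and 1.31 CPM in UHRF1-AID/DNMT1-AID, which overlap one another. Against WT, which had no LINC02212 read on that day, these were at least 21.5-fold, 31.7-fold and 38.7-fold higher. LINC01116 overlaps LINC01117 on the opposite strand, and LINC02212 overlaps an unnamed lncRNA on the same strand and lies within 5 kb of LINC02213.

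LINC02240 (chr5:124808981-125602227, plus strand), which overlaps other lncRNAs on both strands, was at 0.561, 2.10 and 2.67 CPM in UHRF1-AID/DNMT1-AID on day 8, at least 49.1-fold above WT, and at 0.0568, 0.641 and 0.431 CPM in DNMT1-AID, at least 8.81-fold above it. LINC02575 (chr21:44485463-44495519, plus strand), free of exon overlap, was at 0.128, 0.167 and 0.0940 CPM in WT on day 8 and at 2.80, 2.84 and 2.22 CPM in UHRF1-AID/DNMT1-AID (log2 fold change 4.32 ± 0.53, adjusted p = 8.26e-09), above all libraries of the single degron lines. LINC00540, with 2 WT reads on day 8, was at 4.21, 3.97 and 5.37 CPM in UHRF1-AID/DNMT1-AID, a ratio of 180 (95% interval 49.5 to 1490). LINC01404 was at 0.128, 0 and 0 CPM in WT on day 8 and at 1.08, 1.28 and 0.563 CPM in UHRF1-AID/DNMT1-AID, a ratio of 25.5 (95% interval 8.37 to 126). LINC02904, which overlaps LY6S on the opposite strand, had a log2 fold change of 4.20 ± 0.66 there (adjusted p = 1.07e-06). The call of all 11 members as higher in UHRF1-AID/DNMT1-AID on days 6 and 8 was fixed in direction by their choice. The adjusted p-values given for them against WT are no support for that direction.

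**Figure D3:**
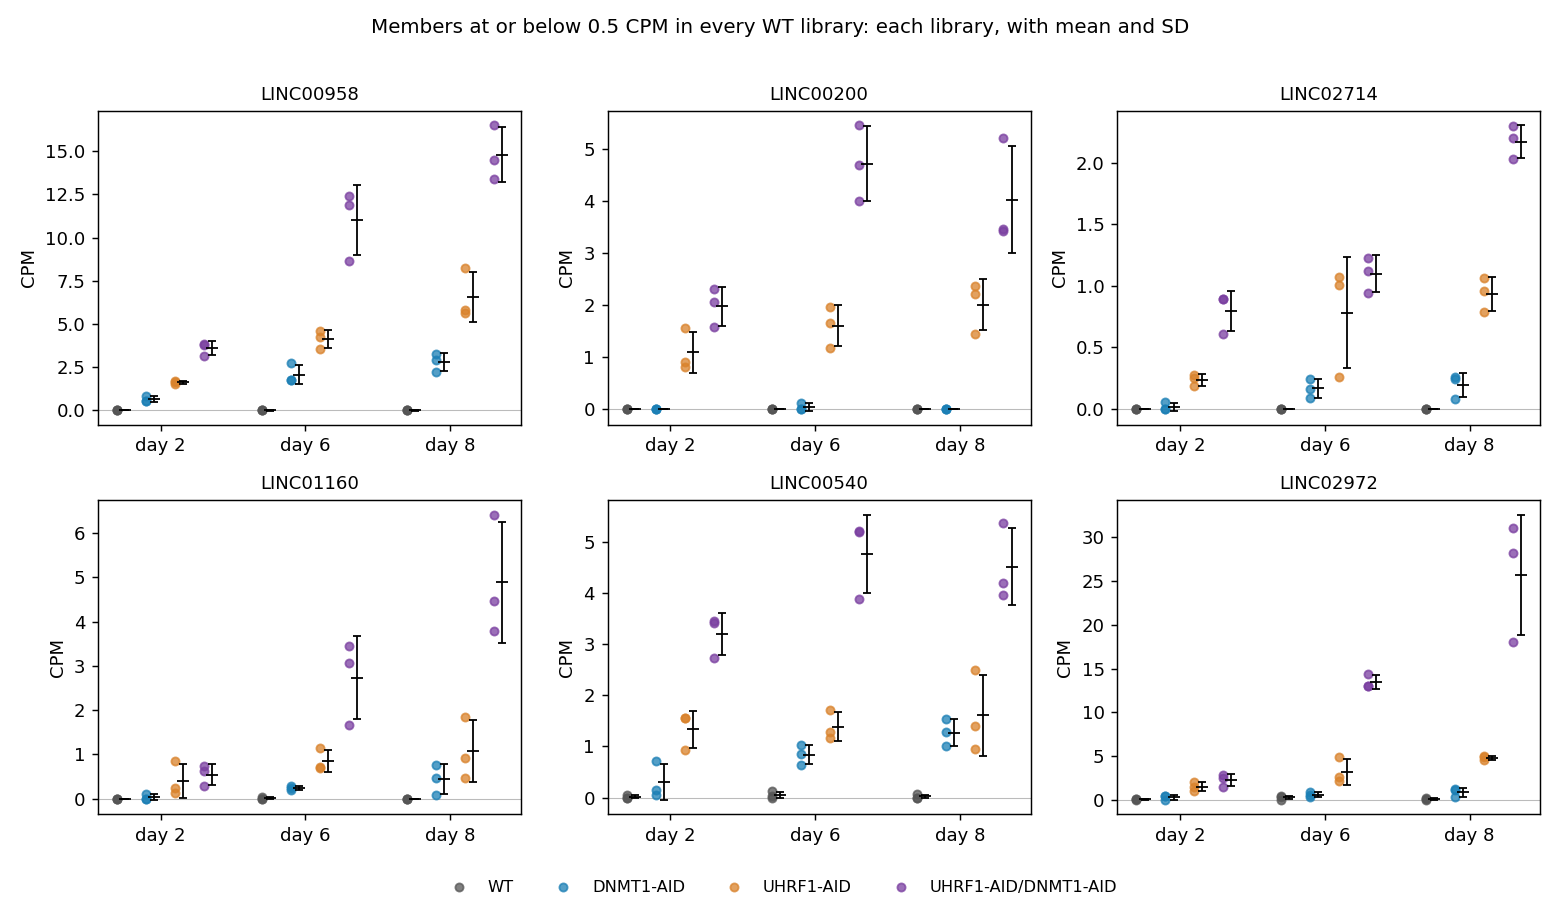
Level in CPM of 6 members that were at or below 0.5 CPM in every WT library, by day and line, with 1 point per library and a black bar for the mean ± SD of the 3 libraries. LINC00958 and LINC02972 show WT near 0 and the highest mean in UHRF1-AID/DNMT1-AID on each day, and LINC00200 is near 0 in DNMT1-AID too.

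LINC02972 (chr12:8788253-8795789, plus strand, no exon overlap) separated the lines on day 8 with no overlap. It was at 0.213, 0 and 0.125 CPM in WT, 0.284, 1.24 and 1.10 CPM in DNMT1-AID, 4.86, 4.57 and 5.04 CPM in UHRF1-AID and 18.0, 31.1 and 28.2 CPM in UHRF1-AID/DNMT1-AID. UHRF1-AID exceeded DNMT1-AID by 2.54 ± 0.44 on the log2 scale (adjusted p = 0.000265), and UHRF1-AID/DNMT1-AID exceeded UHRF1-AID by 2.42 ± 0.35 (adjusted p = 4.42e-06). Against WT its log2 fold change was 2.81 ± 0.77 in DNMT1-AID, 5.35 ± 0.61 in UHRF1-AID and 7.77 ± 0.57 in UHRF1-AID/DNMT1-AID. WT libraries held 38 of the 4384 reads of LINC02972. It too is on the list because of the degron lines, so its direction against WT follows from the choice. That choice favours the lines with most reads, so the differences between degron lines are not free of it either.

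Other members were present in WT and higher in the degron lines. LINC01694 (chr21:45590771-45603088, plus strand, which overlaps an unnamed lncRNA on the other strand and has another within 5 kb) was at 1.07, 1.30 and 0.940 CPM in WT on day 8. It was at 6.71, 6.49 and 5.69 CPM in DNMT1-AID, 7.60, 8.90 and 8.16 CPM in UHRF1-AID and 13.7, 14.0 and 16.8 CPM in UHRF1-AID/DNMT1-AID, each line clear of the next. Its log2 fold change against WT was 2.53 ± 0.23, 2.91 ± 0.23 and 3.76 ± 0.23 in that order, with adjusted p of 8.92e-11, 1.23e-12 and 2.03e-16. The difference between UHRF1-AID and DNMT1-AID was not called, while UHRF1-AID/DNMT1-AID exceeded DNMT1-AID by 1.23 ± 0.19 on the log2 scale (adjusted p = 2.36e-06).

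LINC01426 (chr21:34745756-34784886, plus strand, no exon overlap) was at 0.554, 0.878 and 0.846 CPM in WT on day 8 and at 2.68, 2.97 and 3.28 CPM in UHRF1-AID, 3.27, 3.69 and 2.58 CPM in DNMT1-AID and 2.29, 5.91 and 3.16 CPM in UHRF1-AID/DNMT1-AID. The 3 degron lines overlapped one another, all were above WT, and their log2 fold changes were 1.95 ± 0.29, 2.05 ± 0.29 and 2.31 ± 0.29. It was 1 of the 3 members called in DNMT1-AID on day 2 (1.11 ± 0.29, adjusted p = 0.0335), with LINC00958 and LINC01405. Without WT day 2 replicate 1 its adjusted p was 0.148 and without DNMT1-AID day 2 replicate 3 it was 0.156, and it lost the call without any of the 6 libraries.

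LINC01405 (chr12:110934590-110959093, plus strand) and LINC01404 overlap each other on opposite strands near MYL2, and without the strand of the reads they cannot be told apart. LINC01405 on day 2 was at 0.763, 0.607 and 0.693 CPM in WT, 2.09, 2.51 and 3.21 CPM in DNMT1-AID, 0.461, 1.43 and 0.811 CPM in UHRF1-AID and 2.82, 2.17 and 6.21 CPM in UHRF1-AID/DNMT1-AID. DNMT1-AID was clear of WT (1.91 ± 0.43, adjusted p = 0.0114) and UHRF1-AID was not. That call was lost without any of the 3 WT libraries or DNMT1-AID day 2 replicate 3, with adjusted p from 0.0506 to 0.0764. On day 8 LINC01405 was called in all 3 lines, with log2 fold changes of 2.53 ± 0.60 in DNMT1-AID, 1.71 ± 0.64 in UHRF1-AID and 3.08 ± 0.58 in UHRF1-AID/DNMT1-AID.

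The 18 members called lower in UHRF1-AID/DNMT1-AID on day 8 were read in every WT library. LINC02454 (chr12:65589111-65614169, plus strand, which overlaps MSRB3-AS1 on the other strand) was at 4.62, 2.90 and 4.19 CPM in WT on day 6 and at 1.25, 1.33 and 1.74 CPM in DNMT1-AID, 0.918, 1.10 and 0.492 CPM in UHRF1-AID and 0.485, 0.585 and 0.636 CPM in UHRF1-AID/DNMT1-AID. All 9 degron libraries of day 6 were below all WT libraries. The log2 fold changes were -1.45 ± 0.25, -2.23 ± 0.26 and -2.78 ± 0.27, with adjusted p of 6.59e-05, 1.88e-08 and 2.03e-10. On day 2 the UHRF1-AID/DNMT1-AID line was already lower (-1.14 ± 0.24, adjusted p = 0.000466), with 2.67, 3.90 and 2.57 CPM against 6.86, 6.78 and 6.49 CPM in WT.

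LINC00513 (chr7:130853720-130930682, plus strand, which overlaps an unnamed lncRNA on the other strand) was at 7.01, 9.76 and 7.62 CPM in WT on day 2 and at 6.38, 8.24 and 9.68 CPM in UHRF1-AID/DNMT1-AID, which overlap. By day 8 it was at 3.54, 3.68 and 3.41 CPM in WT, 0.994, 1.08 and 2.92 CPM in DNMT1-AID, 0.926, 1.30 and 1.18 CPM in UHRF1-AID and 0.421, 0.350 and 0.563 CPM in UHRF1-AID/DNMT1-AID. Every degron library was then below WT and those of UHRF1-AID/DNMT1-AID were lowest. The log2 fold changes were -1.15 ± 0.27 in DNMT1-AID (adjusted p = 0.000757), -1.64 ± 0.27 in UHRF1-AID (adjusted p = 8.69e-06) and -2.97 ± 0.32 in UHRF1-AID/DNMT1-AID (adjusted p = 4.76e-10). In DNMT1-AID the value was -0.85 without replicate 1 and -0.93 without replicate 2 of that group, under the limit for a call.

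LINC01270 and LINC01271 overlap each other on opposite strands at chr20:50292709-50315488 and chr20:50299876-50321486, in the region of CEBPB, and both were called lower on days 6 and 8 in UHRF1-AID and UHRF1-AID/DNMT1-AID but in no comparison of DNMT1-AID with WT. In the direct test of UHRF1-AID against DNMT1-AID on day 8 neither was called. All DNMT1-AID libraries of LINC01271 were also below WT on that day. LINC01271, whose window with 9 CG pairs is printed above, was at 2.90, 2.59 and 2.94 CPM in WT on day 8, 1.82, 1.04 and 1.58 CPM in DNMT1-AID, 0.826, 1.16 and 1.09 CPM in UHRF1-AID and 0.514, 0.233 and 0.338 CPM in UHRF1-AID/DNMT1-AID. UHRF1-AID/DNMT1-AID did not overlap any other line, with a log2 fold change of -2.97 ± 0.33 against WT (adjusted p = 6.51e-10), -1.52 ± 0.36 against UHRF1-AID (adjusted p = 0.000809) and -2.06 ± 0.35 against DNMT1-AID (adjusted p = 1.01e-05). LINC01270 was at 5.97, 5.09 and 6.08 CPM in WT and 2.79, 1.86 and 2.57 CPM in UHRF1-AID on day 6, a log2 fold change of -1.25 ± 0.20 (adjusted p = 8.76e-06).

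LINC00973 (chr3:98981058-98983096, plus strand, within 5 kb of a U7 gene) was at 1.36, 1.46 and 1.00 CPM in WT and 0.0467, 0.195 and 0.338 CPM in UHRF1-AID/DNMT1-AID on day 8, which is -2.63 ± 0.49 on the log2 scale (adjusted p = 1.37e-05). LINC02458 (chr12:89010681-89309566, minus strand) was at 1.18, 0.835 and 1.33 CPM in WT and at 0.0910, 0.390 and 0.0398 CPM in UHRF1-AID/DNMT1-AID on day 6 (-2.56 ± 0.66, adjusted p = 0.00257). LINC00449 (chr13:99499727-99501052, minus strand, over an exon of TM9SF2 on the other strand) was at 0.768, 0.209 and 1.06 CPM in WT on day 8. It was at 0.198, 0.170 and 0.0910 CPM in UHRF1-AID (-2.15 ± 0.59, adjusted p = 0.00388), and without WT day 8 replicate 3 the adjusted p was 0.0562. These levels rest on few reads, and the remaining low calls depend on single libraries more. LINC01703 in DNMT1-AID on day 6 was at 0.182, 0.362 and 0.124 CPM against 1.01, 0.914 and 0.403 CPM in WT (-1.78 ± 0.52, adjusted p = 0.0241), and the call was lost without WT day 6 replicate 1 (adjusted p = 0.134) or 2 (0.0837) and without DNMT1-AID day 6 replicate 1 (0.104) or 3 (0.129). LINC02981 and LINC02982 in UHRF1-AID/DNMT1-AID on day 2 had log2 fold changes of -1.69 ± 0.49 and -1.77 ± 0.62. The former lost its call without replicate 2 or 3 of that line (adjusted p 0.0719 and 0.0527), and the latter without any of the 6 libraries (adjusted p from 0.0641 to 0.111).

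**Figure D4:**
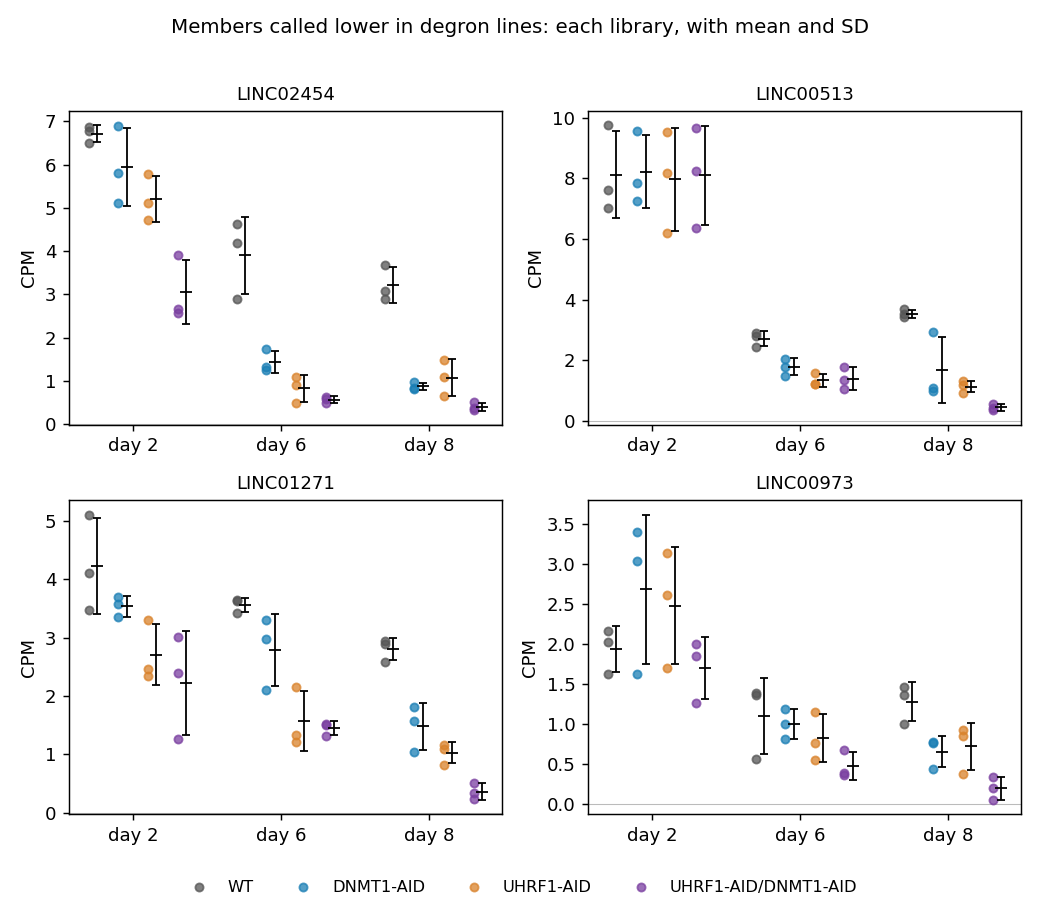
Level in CPM of 4 members called lower in UHRF1-AID/DNMT1-AID than in WT on day 8, by day and line, with 1 point per library and a black bar for the mean ± SD of the 3 libraries. LINC00513 overlaps between the lines on day 2 and lies below WT in all degron libraries on day 8, and LINC02454 is already lower in UHRF1-AID/DNMT1-AID on day 2.

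Between the degron lines on day 8, UHRF1-AID against DNMT1-AID had 12 members called higher (2.80% of all genes) and 4 lower (0.719%). Besides LINC00200 and LINC02972, the rule named LINC02356 and LINC02982 on the lower side. LINC02356 (chr12:111369261-111403310, plus strand, within 5 kb of SH2B3) was at 0.331, 0.443 and 0.576 CPM in UHRF1-AID and at 1.42, 1.12 and 1.24 CPM in DNMT1-AID, a log2 difference of -1.48 ± 0.37 (adjusted p = 0.00596) that became 0.0518 in adjusted p with those 6 libraries alone. LINC02982 (chr5:987180-997342, minus strand) was at 0.463, 0.341 and 0.182 CPM against 0.824, 1.44 and 0.574 CPM (-1.53 ± 0.46, adjusted p = 0.0237), and the adjusted p was 0.186 without DNMT1-AID day 8 replicate 2, 0.133 without UHRF1-AID day 8 replicate 3 and 0.106 with those 6 libraries alone. Without DNMT1-AID day 8 replicate 2, 9 members in place of 16 were called.

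UHRF1-AID/DNMT1-AID had 23 members called higher than in UHRF1-AID (6.40% of all genes) and 15 lower (3.73%), and 28 higher than in DNMT1-AID (9.49%) and 10 lower (3.36%). LINC01160 and LINC02972 were the highest against UHRF1-AID, and LINC00973 and LINC01963 the lowest by the rule for naming. LINC01963 (chr2:216217045-216220192, plus strand, 1 exon, within 5 kb of an unnamed gene) was at 7.93, 3.85 and 6.25 CPM in UHRF1-AID and at 1.87, 1.28 and 2.55 CPM in UHRF1-AID/DNMT1-AID (-1.66 ± 0.28, adjusted p = 1.62e-05). WT was at 6.65, 6.60 and 6.39 CPM, in the range of UHRF1-AID. LINC00973 had an adjusted p of 0.00423 in this comparison and of 0.058 with those 6 libraries alone. A member at its highest group mean in UHRF1-AID/DNMT1-AID on day 8 was the commonest case, with 37 of 200 members, followed by the same line on day 2 with 31 and WT on day 6 with 29. The choice by summed reads favours genes that are high in any group, and the matching count over all genes was not made. These numbers therefore describe the list alone.

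Between days, WT had more genes called than most comparisons of a degron line with WT. WT on day 6 against day 2 had 32 members called higher (19.8% of all genes) and 25 lower (9.47%), and day 8 against day 2 had 25 higher (12.6%) and 20 lower (5.14%). The member shares were 16.0% and 12.5% on day 6, and the difference from all genes was not tested. With scaling by library size alone 49 members were higher and 14 lower on day 6, and 27 and 14 on day 8. Day here stands for time in Dox and auxin and for the day of sampling alike, and the 2 cannot be told apart. In bulk RNA, fewer cells that make an RNA and less of it per cell cannot be told apart either.

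Several members with near-identical copies elsewhere rose from day 2. LINC01001 (chr11:127204-139612, minus strand) was at 0.381, 0.303 and 0.396 CPM in WT on day 2, 20.1, 20.3 and 18.3 CPM on day 6 and 6.31, 4.72 and 5.20 CPM on day 8 (log2 fold change of day 6 against day 2 5.74 ± 0.49, adjusted p = 7.06e-11). LINC02887 (chr17:64099-76866, minus strand), which matches LINC01001 at 99.0% over 1995 bases, had no WT read on day 2 and was at 2.64, 3.02 and 2.76 CPM on day 6, at least 56.8-fold higher. LINC00342 (chr2:95807052-95835003, minus strand, within 5 kb of ANKRD36C) was at 0.0477, 0 and 0 CPM on day 2, 4.55, 3.70 and 4.06 CPM on day 6 and 0.554, 0.460 and 0.689 CPM on day 8. All of these were higher on day 6 than on day 8 in WT with no overlap between the days. A copy of at least 500 bases at 95% identity was found for 18 of the 200 members, among them 8 of the 32 called higher on day 6 and none of the 25 called lower, a difference that was not tested. How reads that fit several copies were counted is not given in the sources used here, so the levels of LINC01001, LINC01002, LINC02887, LINC00265 and LINC00342 are uncertain between the copies.

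LINC01002 (chr19:198264-246544, minus strand), which overlaps other lncRNAs and has 4 such copies, followed the same days, with 1.38, 0.961 and 0.495 CPM in WT on day 2 and 33.7, 29.9 and 31.1 CPM on day 6. In UHRF1-AID on day 2 it was lower still, at 0.126, 0 and 0.111 CPM (-3.52 ± 0.77 against WT, adjusted p = 0.00118). LINC00265 (chr7:39733430-39793092, plus strand) had no read in UHRF1-AID on day 2 and 0.477, 0.253 and 0.198 CPM in WT, so that it was at least 7.92-fold lower from 19 WT reads. On day 8 in UHRF1-AID/DNMT1-AID, LINC01002 spread from 56.6 through 42.8 to 20.6 CPM and LINC01001 from 42.3 through 30.5 to 18.1 CPM, all above the 12.7 and 6.31 CPM that were the highest of WT.

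The members that fell from day 2 in WT included some of the most read. LINC02067 (chr3:161426427-161448242, plus strand) was at 106, 116 and 112 CPM on day 2, 42.7, 49.4 and 44.9 CPM on day 6 and 55.7, 67.1 and 64.4 CPM on day 8 (day 6 against day 2 -1.29 ± 0.12, adjusted p = 7.95e-12). LINC00649 (chr21:33915534-33977703, plus strand, over exons of ATP5PO on the other strand) was at 81.1, 95.4 and 89.8 CPM on day 2 and at 26.4, 26.2 and 23.9 CPM on day 6 (-1.80 ± 0.11, adjusted p = 4.48e-17). The degron lines followed the same days, with 102, 117 and 107 CPM of LINC00649 in UHRF1-AID/DNMT1-AID on day 2 and 22.5, 22.6 and 24.2 CPM on day 6. LINC01618 fell from 36.4, 38.5 and 34.0 CPM to 8.37, 10.0 and 9.05 CPM (-1.99 ± 0.19, adjusted p = 4.22e-11), as DANCR, with which it shares exons, went from 66.4 to 73.1 CPM on day 2 to 19.1 to 20.2 CPM on day 6. LINC01709 (chr1:101639509-101787572, plus strand, over the pseudogene RPSAP19) fell from 3.38, 4.45 and 4.26 CPM to 0.451, 1.39 and 0.403 CPM (-2.46 ± 0.36, adjusted p = 2.19e-07). LINC02356 and LINC01405 had their lowest WT levels on day 8, with log2 fold changes from day 2 of -2.09 ± 0.38 and -2.53 ± 0.62. LINC02240 also passed on day 6, on 4 reads against 0, and lost the call without any of the 6 libraries.

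**Figure D5:**
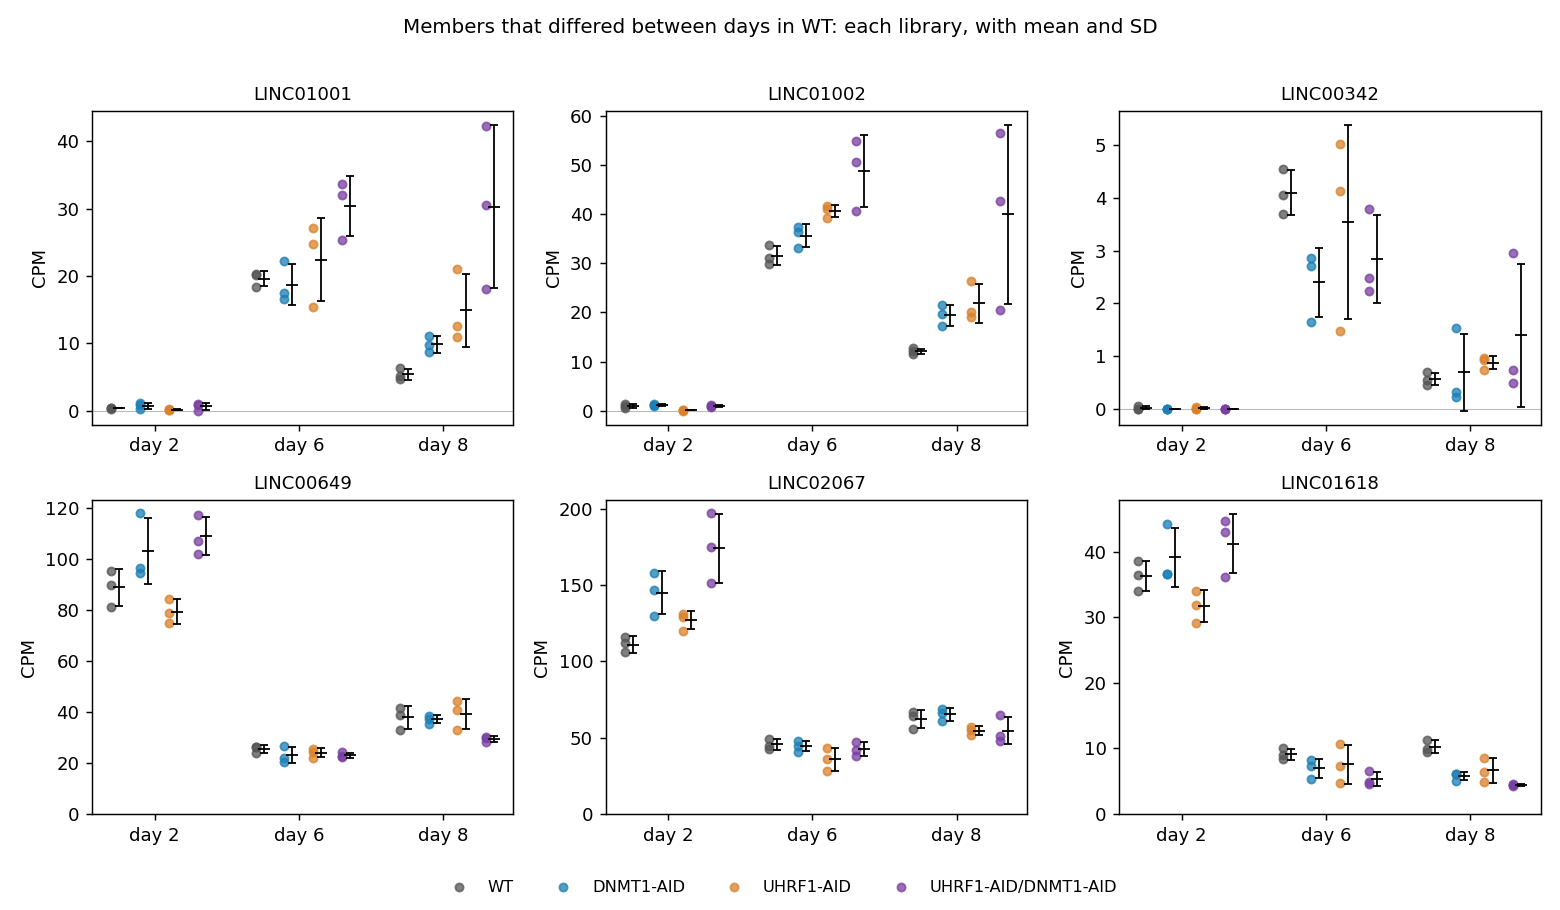
Level in CPM of 6 members by day and line, with 1 point per library and a black bar for the mean ± SD of the 3 libraries. LINC01001, LINC01002 and LINC00342 are low on day 2 and, in WT, highest on day 6, while LINC00649, LINC02067 and LINC01618 are highest on day 2 in all lines.

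The summed level of the members per library shows how far LINC02574 carries the total. In WT the sum was 909 to 963 CPM on day 2 and 1140 to 1240 CPM on day 8, and in UHRF1-AID/DNMT1-AID on day 8 it was 2280 to 2670 CPM. Without LINC02574 the same sums were 874 to 914, 727 to 752 and 914 to 976 CPM. The rise of the sum with days in WT was thus that of LINC02574, and without it WT was lower on day 8 than on day 2. UHRF1-AID/DNMT1-AID stayed above WT without it, also on day 2 (1020 to 1110 CPM) and on day 6 (896 to 910 CPM against 791 to 809 CPM in WT).

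Whether the difference from WT changed between day 2 and day 8 was tested as an interaction. It moved upward in 3 members and downward in 5 for DNMT1-AID (1.44% and 1.03% of all genes; 2 and 8 members with scaling by library size alone), in 5 and 3 for UHRF1-AID (3.76% and 0.399%) and in 13 and 16 for UHRF1-AID/DNMT1-AID (5.44% and 5.82%). LINC01124 (chr2:170712451-170714567, minus strand, 1 exon) lay below WT in UHRF1-AID on day 2 and above it on day 8. It was at 1.24, 1.21 and 1.09 CPM in WT and 0.628, 0.832 and 0.700 CPM in UHRF1-AID on day 2, and at 0.597, 0.836 and 0.313 CPM in WT and 1.95, 0.989 and 1.88 CPM in UHRF1-AID on day 8. The change of effect was 2.20 ± 0.49 (adjusted p = 0.0017). LINC00334 (chr21:45234308-45264548, plus strand, over exons of POFUT2 on the other strand) was at 3.24, 3.79 and 4.95 CPM in WT and 5.91, 3.51 and 4.53 CPM in UHRF1-AID/DNMT1-AID on day 2, and at 4.22, 4.47 and 4.60 CPM against 12, 14.7 and 15.0 CPM on day 8 (change 1.42 ± 0.25, adjusted p = 3.15e-05). LINC02035 (chr3:122886941-122892416, plus strand, 1 exon) went the other way, from 7.06, 7.12 and 7.50 CPM on day 2 to 2.66, 1.71 and 2.93 CPM on day 8 in that line, while WT was at 6.58, 5.66 and 7.77 and then at 6.95, 8.03 and 7.17 CPM (change -1.71 ± 0.29, adjusted p = 1.63e-05).

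The nearest protein-coding gene start lay a median of 53506.5 bases from the start of a member. Of the 57 members called higher in UHRF1-AID/DNMT1-AID on day 8, 45 had such a neighbour among the genes tested, 9 of which were called higher too and 2 lower, where 17.3% and 10.2% of all genes were. Of the 18 called lower, 15 had a tested neighbour, with 2 called lower and 1 higher. Both counts are near those shares, and they are no result about the neighbours. Among examples chosen after their values were seen, LINC01124 and SP5, a transcription factor of Wnt signalling, whose starts are 770 bases apart, had log2 fold changes of 2.06 and 2.54. LINC02875 and TBX2, a T-box transcription factor within 5 kb on the same strand, had 3.22 and 3.71, and LINC01615 and THBS2, which codes for a matrix protein, 3.57 and 3.10. LINC02454 and HMGA2, a chromatin protein of embryonic and tumour cells, had -2.97 and -2.53. LINC00540 went against FGF9, at 7.24 and -1.98, with starts 369899 bases apart. LINC01980, which overlaps LINC01967 on the other strand, had 3.95 against -1.20 for EOMES.

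The other gene groups are given for the comparison of UHRF1-AID/DNMT1-AID with WT on day 8. Among the 160 LINC genes outside the list that could be tested, 62 were called higher and 9 lower, with a median log2 fold change of 0.96. These less read genes can pass the filter on low counts through the group in which they are high, and how many did was not counted. Of the 4234 other lncRNA genes 740 were higher and 775 lower, and of 15404 protein-coding genes 2581 and 1195. Of 30 tested lncRNAs known by other names, 8 were higher (H19, MEG3, HOTAIR, MALAT1, UCA1, PURPL, MIR22HG and SNHG12) and 2 lower (DANCR and HOTTIP). Of 22 genes of nuclear RNA decay, the exosome and its cofactors, edgeR and DESeq2 called none in either direction, with a median of -0.26 and, at an unadjusted p under 0.05, 5 higher and 12 lower. In the other comparisons with WT the sole decay gene called was ZC3H18, lower in UHRF1-AID on day 2 (-1.07 ± 0.13).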

How the data were processed

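Poly-A RNA of 36 libraries was sequenced, 3 for each of 4 lines on 3 days. The authors deposited 1 file per library with raw read counts for 60648 gene identifiers. The submitters' processing notes name STAR, featureCounts and build hg38. Per the study's methods reads were trimmed and paired ends aligned, and transposon counts of these libraries were made without strand. For the gene counts the strand setting, the treatment of shared or multiple matches and the annotation release are not given in the sources used here, and each can move reads between overlapping or near-identical genes. Identifiers were matched without version to GENCODE v44 (60462 matched, 186 not), which gave names, types and positions.

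Groups come from the sample labels. Counts were fitted with edgeR 4.0.16 in R 4.3.3 over all 12 groups (TMM scaling, robust quasi-likelihood, 24 residual degrees of freedom), after filterByExpr with a minimum count of 10 left 22530 genes, all 200 members among them. P-values were adjusted by Benjamini-Hochberg over these genes, and the tests are two-sided. CPM values use the TMM-scaled library size. Totals of 21074536 to 37175136 reads set the precision, and intervals for low counts are at 95%. On data simulated for UHRF1-AID/DNMT1-AID against WT on day 8 with 22530 genes, the fit called 46.2% of 13 members with a 2-fold change, 75% of 12 with a 4-fold change and 3 of 21987 unchanged genes.

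The members, gene lists and tests were chosen with earlier results of these data known. Named members are the 10 most read, those with the highest and lowest log2 fold changes among the called with a mean of at least 0.5 CPM and no overlap between groups (4 and 2 for each comparison with WT, 3 and 3 for WT over days, 2 and 2 between degron lines), the 3 of smallest p for each change of effect, those without a WT read and those at the limit of the list. Others were chosen after their values were seen. Alternatives were the scaling, the filter, DESeq2 1.42.0, a replicate block, fits to the compared libraries, lists chosen on WT libraries or on CPM, and leaving out each library. In the median over pairs of different groups, same-numbered libraries did not deviate together (median correlation 0.0138, from -0.0842 to 0.265). That median cannot show whether libraries of the same line are paired across days, which was not tested. Copies were searched by sequence with at least 95% identity over 500 bases. Python 3.11.15 with pandas 2.3.3 and numpy 2.4.6 was used for tables.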

Additional observations from a re-analysis of the deposited data

Results flagged for a closer look

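The difference between a degron line and WT changed from day 2 to day 8 for 9 named values, each by an interaction contrast in the edgeR quasi-likelihood fit. In DNMT1-AID, LINC02454 moved by -1.68 ± 0.35 on the log2 scale (adjusted p = 0.00138), LINC01694 by 1.57 ± 0.36 (adjusted p = 0.00355) and LINC00334 by 1.02 ± 0.26 (adjusted p = 0.00718). In UHRF1-AID, LINC01002 moved by 4.36 ± 0.78 (adjusted p = 0.000295), LINC01694 by 1.84 ± 0.36 (adjusted p = 0.000361) and LINC01124 by 2.20 ± 0.49 (adjusted p = 0.0017). In UHRF1-AID/DNMT1-AID, LINC00513 moved by -2.97 ± 0.41 (adjusted p = 4.14e-07), LINC02035 by -1.71 ± 0.29 (adjusted p = 1.63e-05) and LINC00334 by 1.42 ± 0.25 (adjusted p = 3.15e-05).

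LINC01002 in UHRF1-AID went from 2 of 3 libraries with reads on day 2 (0.126, 0 and 0.111 CPM against 0.495 to 1.38 CPM in WT) to 20.0, 26.4 and 19.1 CPM on day 8 (11.6 to 12.7 CPM in WT). It has near-identical copies, and the part of these in the change was not tested. The change of LINC00334 in DNMT1-AID lost its call without WT day 2 replicate 3 (0.84), DNMT1-AID day 2 replicate 2 (0.91), WT day 8 replicate 1 (0.99) or DNMT1-AID day 8 replicates 2 and 3 (0.96 each), all under the limit of 1.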

How the results depend on the processing

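Of 84 named values, 12 lost their call in some alternative, 10 of them when 1 library was left out, and none changed direction. Lists chosen on WT libraries alone moved the counts for DNMT1-AID, UHRF1-AID and UHRF1-AID/DNMT1-AID against WT to 1, 8 and 13 on day 2 (from 3, 20 and 29) and to 6, 10 and 20 on day 6 (from 18, 27 and 40). For the single degrons of day 8 they gave 21 and 26 (from 35 and 40), and for UHRF1-AID against DNMT1-AID 8 (from 16). The 3 members of DNMT1-AID on day 2 became 6 with no filter, 5 with the replicate block and 6 by DESeq2, and 1 to 3 without 1 library (1 without WT day 2 replicate 1). Changes of effect gave 13 by DESeq2 in place of 8 for UHRF1-AID, and 4 to 11 in place of 8 without 1 library for DNMT1-AID (4 without DNMT1-AID day 8 replicate 2, 11 without replicate 1). UHRF1-AID against DNMT1-AID gave 7 with only those libraries and 9 to 16 without 1 library (9 without DNMT1-AID day 8 replicate 2). The cause was not tested. The replicate block ended no named call and moved no other count by over 1.5 times.

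Scaling by library size alone shifted the median of all genes by -0.208 in UHRF1-AID/DNMT1-AID and -0.199 in DNMT1-AID on day 8, by 0.317 and 0.157 in WT on days 6 and 8 against day 2, by -0.114 and -0.131 in DNMT1-AID and UHRF1-AID/DNMT1-AID on day 2, and by 0.108 and -0.117 for UHRF1-AID against DNMT1-AID and UHRF1-AID/DNMT1-AID against UHRF1-AID. Higher and lower members then numbered 43 and 29 in UHRF1-AID/DNMT1-AID (57 and 18 with TMM) and 22 and 18 in DNMT1-AID (27 and 8) on day 8, 22 and 6 in UHRF1-AID/DNMT1-AID on day 2 (26 and 3), 49 and 14 in WT on day 6 (32 and 25), 27 and 14 on day 8 (25 and 20), and 2 and 8 for the change in DNMT1-AID (3 and 5). DESeq2 gave no adjusted p for up to 35 members. Depth limits the low members, and 59 members have a mean below 1 CPM. In the simulated comparison 58.3% of 12 members with a 3-fold change were called, against 94.7% of 38 other genes. Those other genes were drawn above a minimum expected count and the members were not, so the shares are not like for like.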
